A study of Mus musculus with 8 samples.

Results

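The 9 genes examined belong to cytosolic DNA sensing or removal or to the interferon-inducible Ifi200 family, apart from the interferon-inducible Samd9l. In cells isolated from liver as endothelial cells (ECs), 7 of them had enough signal to be tested. Of these, 6 were higher, Samd9l among them, and 1 was lower after depletion of LRP1, a large endocytic receptor of the LDL receptor family. Of all 11391 genes tested, 19.0% were higher and 22.2% lower. Ifi203 and Samd9l moved most, from a mean signal of 1.62 to 7.44 and from 3.65 to 11.5. Ifi205, Mnda, Trex1 and Ifi204 rose by less. Tmem173, which encodes the adaptor STING, fell to 79.1% of the WT mean, and neither Mb21d1, which encodes the DNA sensor cGAS, nor Aim2 passed the test. The 9 genes were chosen by symbol (Mb21d1, Tmem173, Trex1, Ifi203, Ifi204, Ifi205, Mnda, Aim2 and Samd9l), and each matched 1 of the 22520 protein-coding genes of the mRNA-seq table. The table held 4 WT and 4 LRP1 eKO libraries. The labels give the cells as liver microvesicular cells of C57BL/6 mice at postnatal day 14, and the paper describes microvascular ECs selected with a PECAM-1 antibody on magnetic beads. Both genotypes carried floxed Lrp1 alleles (LRP1 f/f). LRP1 eKO mice also carried Cdh5-CreER, an inducible Cre recombinase driven by the VE-cadherin gene, and their WT littermates did not, so loss of LRP1 and presence of CreER cannot be told apart. The agent, dose and time of induction, and whether a library pooled several animals, are not given in the sources used here.

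In the cytosol, cGAS binds double-stranded DNA and makes the second messenger cGAMP, which activates STING on the endoplasmic reticulum. STING recruits the kinase TBK1, TBK1 phosphorylates IRF3, and type I interferon genes are transcribed. TREX1 is an exonuclease that degrades cytosolic DNA before cGAS meets it. AIM2 binds the same kind of ligand but assembles an inflammasome. The Ifi200 proteins share with AIM2 a DNA-binding HIN domain, a pyrin domain or both, and type I interferon induces much of the family in macrophages and other cells. SAMD9L is an interferon-inducible antiviral and growth-restraining protein.

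The promoters of the Ifi200 genes are shown first, because several of them share a short run of bases there. A pair of motifs was searched on both strands in the 250 bases before each RefSeq start site of GRCm38.p6. The first was GAAANNGAAA, the core of the interferon-stimulated response element that interferon regulatory factors and ISGF3 bind, and the second was TTCNNNGAA, the gamma-activated site that STAT dimers bind. Of 8 members looked up, 7 had a RefSeq window. The first motif stood before Ifi203, Ifi205 and Mnda, which is 3 of 7 members with a window, and before 5 of 7 other genes of the same cluster. It was not in the windows of Aim2, Mb21d1, Trex1 or Samd9l, while Ifi204 had no window and Tmem173 was not looked up. Across all RefSeq genes, 3.46% had it (936 of 27025). The second motif was found before 0 of these 7 members, against 8.13% of all genes. In the stretches below, written 5′ to 3′ on the strand of each gene, capitals mark the motif and 10 bases are shown on each side of it.
Ifi203 (chr1:173942508-173942537, minus strand): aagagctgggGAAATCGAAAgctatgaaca
Ifi205 (chr1:174031870-174031899, minus strand): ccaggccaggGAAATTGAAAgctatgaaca
Mnda (chr1:173913064-173913093, minus strand): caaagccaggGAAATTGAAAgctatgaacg
Mndal (chr1:173880204-173880233, minus strand): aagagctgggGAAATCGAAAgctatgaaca
AI607873 (chr1:173741831-173741860, minus strand): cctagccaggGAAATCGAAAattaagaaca
Pydc4 (chr1:173599326-173599355, minus strand): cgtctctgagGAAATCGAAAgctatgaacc
Pydc3 (chr1:173673597-173673626, plus strand): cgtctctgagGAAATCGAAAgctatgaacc
BC094916 (chr1:173536017-173536046, minus strand): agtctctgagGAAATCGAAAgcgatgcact
The motif began 35 bases before the start site in Ifi203, 37 bases in Mnda, 134 bases in Ifi205, 36 bases in Mndal and 41 bases in AI607873. For Ifi203 it lay before the second of its RefSeq start sites. Bases shortly after the RefSeq start sites of Ifi203, Mndal and AI607873 were not found in GENCODE transcripts of the same gene. For these genes, which start site the measured transcripts used is not known. The 30 bases of Ifi203 and Mndal were identical, as were those of Pydc4 and Pydc3, whereas Ifi205 and Mnda differed at 3 of 30 positions and Ifi203 and Mnda at 6. A match describes these letters and shows no binding.

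Values were compared as quantile-normalized signal, whose unit before normalization is not stated, so levels are compared between libraries and not between genes. The depth of the libraries is unknown. Fold changes below are log2 differences of signal + 1, LRP1 eKO against WT, with a standard error (SE), and adjusted p-values are Benjamini-Hochberg values from limma over the 11391 genes that reached a signal of 1 in 4 or more of the 8 libraries. This scale understates changes of low genes. Lrp1 (chr10:127538161-127621148), the targeted gene, was 56.2 to 85.1 in WT and 2.16 to 6.01 in LRP1 eKO libraries. WT replicate 4 was the WT library farthest from the WT median for 61.7% of genes, and LRP1 eKO replicate 2 was so in its group for 37.2%. The defining endothelial markers Pecam1 and Cdh5 were detected in every library, Pecam1 at 1.53 to 2.50 in WT and 1.84 to 3.85 in LRP1 eKO libraries, and Cdh5 at 1.26 to 2.27 and 2.21 to 4.99. In WT both lay close to the signal of 1 that the filter used. Detection does not give the share of endothelial cells, which was not tested. Pan-endothelial markers summed to 49.99 to 52.2 in WT and 58.4 to 82.0 in LRP1 eKO libraries. Of 8 tested markers, 3 were higher and 0 lower, beside 19.0% and 22.2% of all genes tested. Their mean log2 signal overlapped between genotypes, at 2.345 to 2.568 in WT and 2.546 to 3.061 in LRP1 eKO libraries. Hepatocyte markers summed to 62.2 to 90.3 in WT and 20.6 to 28.2 in LRP1 eKO libraries. Of these, 4 of 4 tested markers were lower, Fgb among them, where 22.2% of all genes were. Hepatic stellate cell markers summed to 622 to 664 and 522 to 563, most of it Dcn, which averaged 563.1 and 456.5. Of 4 tested stellate markers, 1 was higher and 1 lower, beside 19.0% and 22.2% of all genes tested. Their mean log2 signal overlapped, at 5.56 to 5.76 in WT and 5.66 to 5.70 in LRP1 eKO libraries. Markers of macrophages are given beside the genes they moved with. In bulk libraries, a change in the number of cells of a type and a change in RNA per cell cannot be told apart, and the part of the endothelial, hepatocyte and stellate cell markers in the results was not tested.

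Among members past the filter, 6 of 7 were higher at an adjusted p below 0.05, where 19.0% of all genes tested were, and 1 of 7 was lower, where 22.2% were. Their median log2 fold change was 0.61, and that of all genes tested was -0.0095. The signals of the 2 genotypes did not overlap for 5 members that were higher (20.0% of all genes) and for 1 that was lower (22.5%). With a 2-fold change also required, 2 members were higher, where 0.869% of all genes were. Every member is drawn by library, with its own axis from 0, in the plot of signals.

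**Figure D1:**
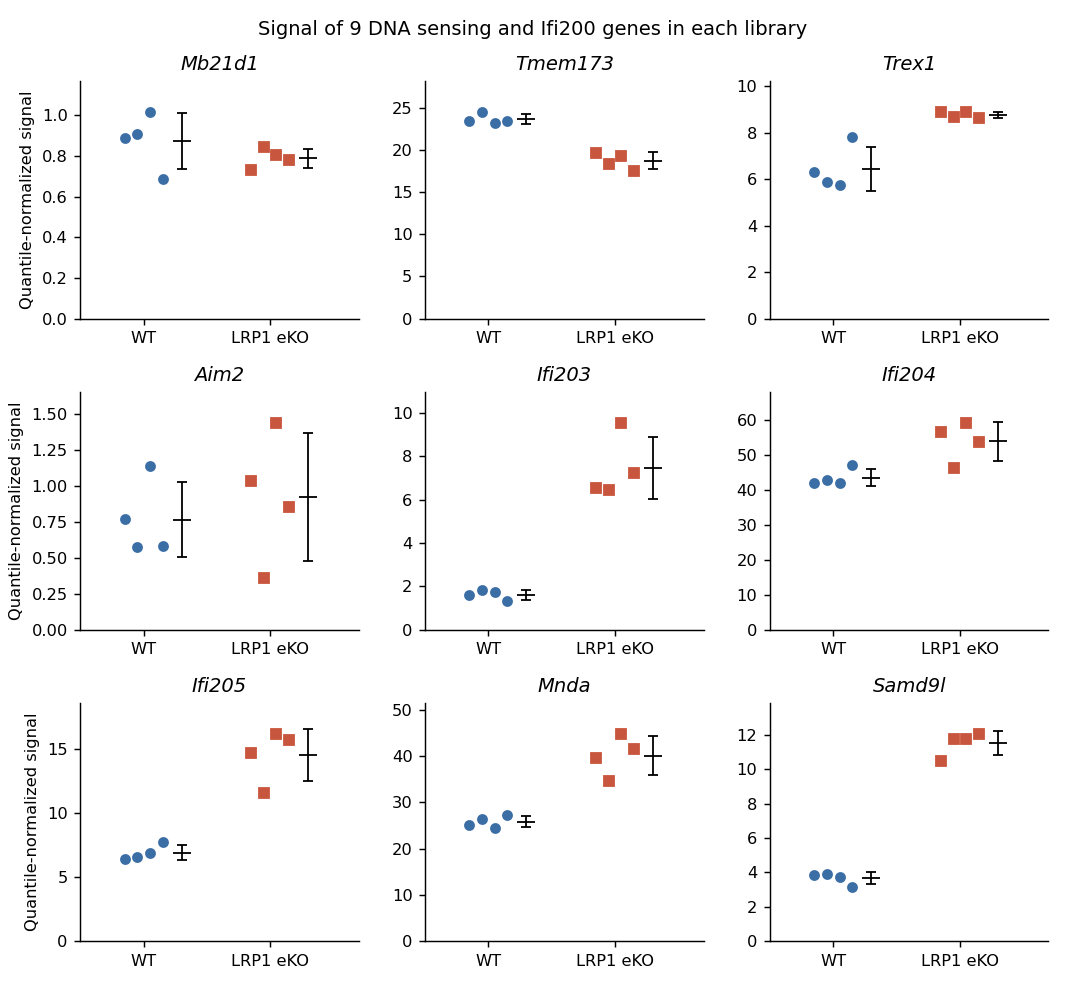
Quantile-normalized signal (vertical axis, linear from 0, different in each panel) of the 9 genes in 4 WT libraries (circles, in order of replicate number) and 4 LRP1 eKO libraries (squares), with the group mean and SD as a bar beside the points. The groups were apart for Tmem173, Trex1, Ifi203, Ifi205, Mnda and Samd9l, overlapped by 1 pair of libraries for Ifi204, and overlapped widely for Mb21d1 and Aim2.

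The sensor cGAS, the enzyme at the head of the pathway, did not pass the test, whereas the adaptor STING was lower. Mb21d1 (chr9:78430526-78443237, minus strand, annotated as Cgas) read 0.888, 0.907, 1.02 and 0.685 in WT replicates 1 to 4 and 0.731, 0.842, 0.802 and 0.779 in LRP1 eKO replicates 1 to 4. The LRP1 eKO values lay inside the WT range. Mb21d1 did not reach the signal filter, and fitted without it the log2 fold change was -0.06 (95% confidence interval -0.19 to 0.07, limma adjusted p = 0.45). Tmem173 (chr18:35733679-35740554, minus strand) read 23.5, 24.5, 23.2 and 23.4 in WT and 19.7, 18.4, 19.3 and 17.5 in LRP1 eKO libraries. All 4 LRP1 eKO libraries were below all WT libraries, and both groups were narrow, at 23.7 ± 0.576 and 18.7 ± 0.996 (SD, n = 4). The log2 fold change was -0.32 (SE 0.049, limma adjusted p = 8.1e-04, exact two-sided permutation p = 0.029, the smallest that 4 against 4 libraries can give).

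TREX1 removes DNA upstream of both sensors, and its transcript was higher. Trex1 (chr9:109057933-109059734, minus strand) read 6.32, 5.87, 5.75 and 7.81 in WT and 8.89, 8.70, 8.89 and 8.64 in LRP1 eKO libraries. WT replicate 4 was the highest WT library and still below every LRP1 eKO library. The means were 6.44 ± 0.947 and 8.78 ± 0.130 (SD, n = 4), with a log2 fold change of 0.40 (SE 0.082, limma adjusted p = 0.0039). All 1147 exon bases of Trex1 also lie in exons of Atrip on the same strand, so how reads were divided between the pair is uncertain. Atrip, a partner of the ATR checkpoint kinase, averaged 3.99 in the WT group and 3.89 in the LRP1 eKO group (log2 fold change -0.02, limma adjusted p = 0.82).

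The Ifi200 genes lie in one cluster on chromosome 1. Ifi203 (chr1:173920407-173942672, minus strand) rose most of the 9 genes. It read 1.602, 1.84, 1.74 and 1.31 in WT and 6.54, 6.45, 9.52 and 7.25 in LRP1 eKO libraries. The lowest LRP1 eKO library was well above the highest WT library, and LRP1 eKO replicate 3 stood above its group. The mean rose 4.59-fold, from 1.62 ± 0.228 to 7.44 ± 1.43 (SD, n = 4), and the log2 fold change of 1.68 (95% confidence interval 1.42 to 1.93, limma adjusted p = 5.1e-06) was the 29th highest of the genes tested. Ifi205 (chr1:174011998-174031810, minus strand), close in sequence to Mnda, read 6.39, 6.57, 6.88 and 7.70 in WT and 14.7, 11.6, 16.1 and 15.7 in LRP1 eKO libraries. The groups did not overlap, and LRP1 eKO replicate 2 was the lowest of its group. The log2 fold change was 0.97 (95% confidence interval 0.75 to 1.19, limma adjusted p = 6.8e-05), just under 2-fold on this scale, while the ratio of mean signals was 2.11.

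Mnda (chr1:173896345-173913046, minus strand), named for the human myeloid cell nuclear differentiation antigen and listed as Ifi211 under the same identifier in GENCODE M21, was also higher. It read 25.1, 26.4, 24.6 and 27.2 in WT and 39.7, 34.6, 44.8 and 41.5 in LRP1 eKO libraries. Each LRP1 eKO library exceeded each WT library, again with replicate 2 the lowest. Its log2 fold change was 0.61 (SE 0.074, limma adjusted p = 1.9e-04). Ifi204 (chr1:173747293-173766943, minus strand) encodes p204, a nuclear and cytosolic protein with roles in DNA sensing and in differentiation. It read 41.8, 42.9, 41.8 and 47.1 in WT and 56.5, 46.2, 59.0 and 53.6 in LRP1 eKO libraries. Here the groups overlapped by a single pair, since LRP1 eKO replicate 2 was below WT replicate 4. The log2 fold change was 0.30 (SE 0.075, limma adjusted p = 0.011), and the exact two-sided permutation test alone gave p = 0.057.

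Aim2 (chr1:173350879-173466040, plus strand), at the other end of the cluster, did not pass the test. It read 0.768, 0.576, 1.14 and 0.582 in WT and 1.03, 0.363, 1.43 and 0.855 in LRP1 eKO libraries. The groups overlapped, and LRP1 eKO replicate 2 was the lowest of all 8 libraries. Fitted without the filter, the log2 fold change was 0.10 with a 95% confidence interval of -0.31 to 0.51 (limma adjusted p = 0.71).

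Samd9l (chr6:3372257-3399572, minus strand), outside the cluster, rose with the smallest adjusted p of the 9 genes. It read 3.83, 3.92, 3.72 and 3.13 in WT and 10.5, 11.8, 11.8 and 12.0 in LRP1 eKO libraries. The groups were far apart, and LRP1 eKO replicate 2 was among the other LRP1 eKO libraries and not below them. The mean rose 3.16-fold, from 3.65 ± 0.358 to 11.5 ± 0.708 (SD, n = 4), with a log2 fold change of 1.43 (95% confidence interval 1.27 to 1.59, limma adjusted p = 7.5e-07).

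**Figure D2:**
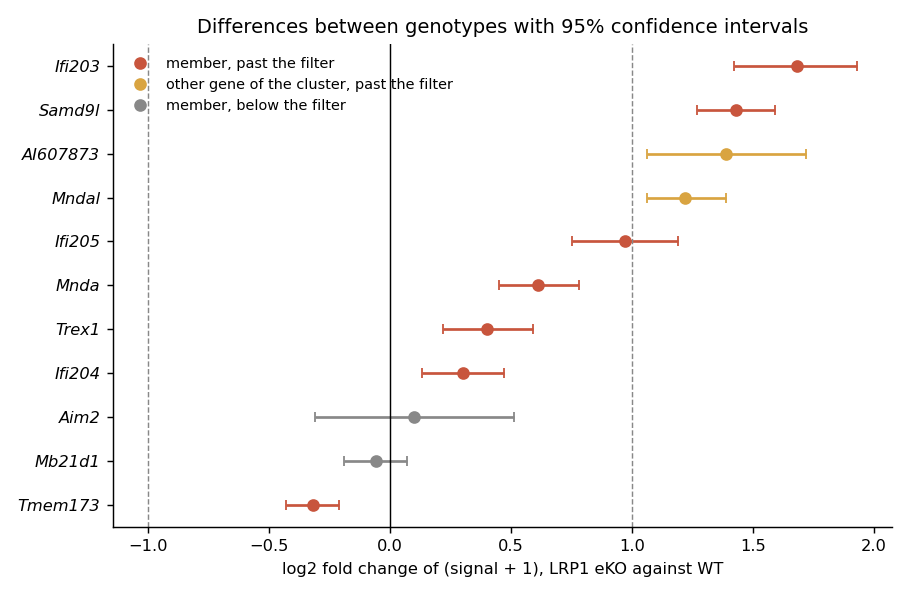
Log2 fold change of signal + 1 in LRP1 eKO against WT libraries (horizontal axis) with 95% confidence intervals from limma, for the 9 members and the 2 other genes of the Ifi200 cluster past the filter. Dashed lines mark 2-fold. The intervals of Ifi203, Samd9l, AI607873 and Mndal lay above 2-fold, that of Ifi205 crossed it, and those of Aim2 and Mb21d1 crossed 0.

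From Aim2 to Ifi205 the cluster spans 680932 bases with 13 protein-coding genes, of which the table held 12, that is 5 members and 7 others. Both other genes past the filter were higher. Mndal, an Ifi200 gene whose annotated span takes in Mnda and overlaps Ifi203, read 3.24, 2.79, 2.79 and 3.52 in WT and 7.86, 8.70, 8.80 and 8.72 in LRP1 eKO libraries (log2 fold change 1.22, SE 0.073, limma adjusted p = 2.3e-06). AI607873, annotated as Ifi207, read 3.11, 3.80, 3.20 and 2.79 in WT and 12.1, 7.14, 12.3 and 9.46 in LRP1 eKO libraries (log2 fold change 1.39, SE 0.15, limma adjusted p = 9.1e-05). For both, no LRP1 eKO library reached down to the WT range. The other 5 genes were near 0 in WT and below the filter. Pyhin1, annotated as Ifi209, averaged 0.0842 in the WT group and 0.714 in the LRP1 eKO group (log2 fold change 0.65, limma adjusted p = 0.0041 without the filter), and Pydc3 averaged 0.0118 and 0.143 (0.17, limma adjusted p = 0.029). Neither gene overlapped between genotypes, while Pydc4 (limma adjusted p = 0.057), BC094916 (limma adjusted p = 0.11) and Ifi202b did not pass the test. Ifi202b was listed at 0 in 7 of 8 libraries and read 0.0126 in LRP1 eKO replicate 2. The map of the cluster gives these fold changes in chromosomal order.

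**Figure D3:**
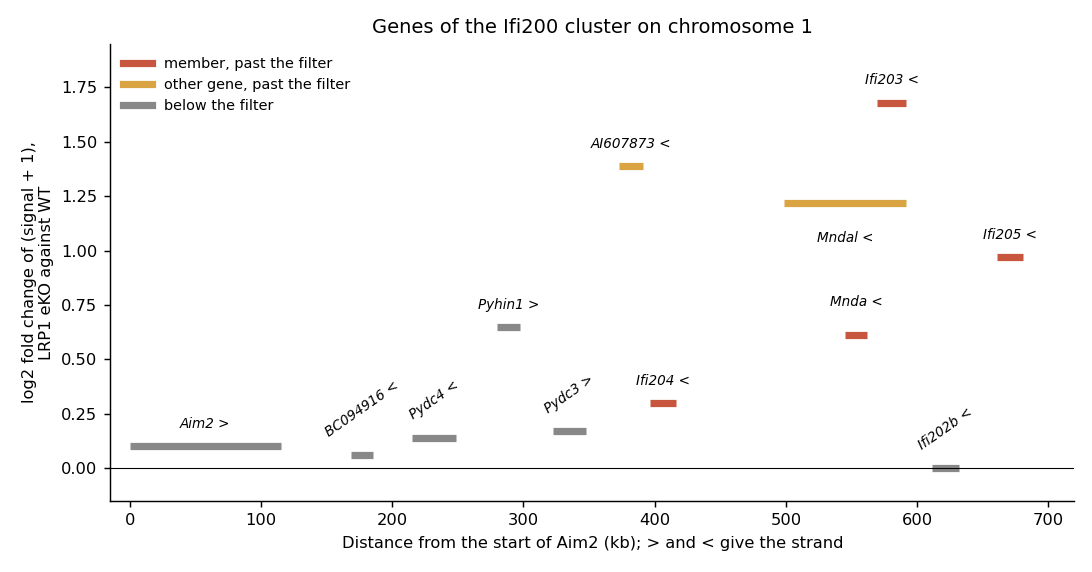
Each bar spans 1 of 12 genes of the Ifi200 cluster, by its distance in kb from the start of Aim2 (horizontal axis), at its log2 fold change of signal + 1 in LRP1 eKO against WT libraries (vertical axis). Ifi203, AI607873 and Mndal stood above 1, Ifi205 at 0.97, and Ifi204 and Aim2 at 0.30 and 0.10. Gray bars are genes below the signal filter.

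Several of these genes share sequence, which limits how far their values are separate measurements. Of all 50-base stretches of its GENCODE transcripts, 72.8% of Mnda, 49.6% of Ifi205 and 30.2% of Ifi204 also occur in another gene, most often in one another (44.7% of Mnda in Ifi205). The share was 16.5% for Ifi203, 12% in the pseudogene Ifi203-ps, 30.1% for Mndal and 7.29% for AI607873. It was under 1% for Mb21d1, Aim2 and Samd9l and 0% for Tmem173. With the group means removed, log2 signals of Ifi204, Ifi205 and Mnda had Pearson's r of 0.90 to 0.92 with each other over the 8 libraries. Ifi203 had an r of 0.56 with Mnda and 0.57 with Samd9l, and Samd9l one of -0.50 with Ifi204 and -0.78 with Trex1. WT replicate 4 was the highest WT library for Trex1 (7.81) and the lowest for Samd9l (3.13). These r values describe 8 libraries that share 1 normalization, and a single library can weigh heavily on them. The closest patterns named next were picked for their r among all genes tested, so high values partly reflect that choice. By the same measure over all genes tested, the closest patterns were those of Spc24, Trim63 and Pdxdc1 for Ifi205 (r 0.965 to 0.974), of Lrrc40, Krt19 and Phyhd1 for Mnda (0.952 to 0.967) and of Tubb4a, Ldhb and Tnni1 for Ifi204 (0.980 to 0.988). For Ifi203 they were D230025D16Rik, Uhrf2 and Cyr61 (0.957 to 0.970), and for Samd9l they were Dnajb4, Atp1b1 and Mat2a (0.982 to 0.989). For Tmem173 they were Pcbp2, Tshz2 and Slc45a4 (0.964 to 0.975), and for Trex1 they included Rdh12 and Trmt12 (both 0.993).

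Macrophages express Ifi200 genes, and markers of macrophages and Kupffer cells differed between LRP1 eKO libraries. The mean log2 signal of the 9 macrophage markers past the filter was 3.19, 3.30, 3.41 and 2.62 in WT and 5.36, 1.76, 5.24 and 4.49 in LRP1 eKO replicates 1 to 4. Replicate 2 was below every WT library, and the other 3 LRP1 eKO libraries were above all of them. The summed signal of the 13 markers in the table ran from 113 to 222 in WT and from 52.9 to 736 in LRP1 eKO libraries. Of the 9 tested, 1 was higher and 0 lower, beside 19.0% and 22.2% of all genes tested. Clec4f, which defines Kupffer cells, was listed at 0 in all WT libraries and read 0.124 to 0.826 in LRP1 eKO libraries. Of the 6 members that were higher, 4 (Ifi203, Ifi204, Ifi205 and Mnda) had their lowest LRP1 eKO value in replicate 2. Ifi203, Ifi205, Mnda and Samd9l were above all WT libraries in every LRP1 eKO library, replicate 2 included. In replicate 2, Ifi203 read 6.45 against at most 1.84 in WT, and Ifi205 11.6 against at most 7.70. Mnda read 34.6 there against at most 27.2, and Samd9l 11.8 against at most 3.92. Ifi204 at 46.2 was within the WT range there, and Aim2 at 0.363 was below it.

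With the macrophage mean as a covariate, the log2 fold change was 1.59 for Ifi203, 0.86 for Ifi205, 0.54 for Mnda, 0.22 for Ifi204 (limma adjusted p = 0.025) and 1.44 for Samd9l, and each remained past the test. Tmem173 was at -0.34 and Trex1 at 0.42 with it. Every LRP1 eKO library except replicate 2 was above all WT libraries in macrophage markers. This fit therefore leans on replicate 2 to separate genotype from the macrophage mean. Marker RNA also does not give the number of macrophages. The part of macrophages in these differences was not tested. Without LRP1 eKO replicate 2, Ifi205 was at 1.07, past 2-fold, and Ifi204 at 0.37 (limma adjusted p = 0.0014). Aim2 changed sign with the covariate, to -0.12 (limma adjusted p = 0.53). Monocyte and neutrophil markers, led by Itgam, moved as macrophage markers did, with summed signals of 2.35 to 3.48 in WT and 2.28 to 12.0 in LRP1 eKO libraries and Ly6g at 0 in all libraries. Dendritic cell markers summed to 97.9 to 109 and 262 to 298, nearly all of it Bst2, an interferon-inducible antiviral gene that many cell types express, while Siglech, Flt3 and Cd209a were at 0. Lymphocyte markers were near 0 in every library (0.0652 to 0.183 in sum, Cd79a the highest), with Cd8a, Ncr1 and Gzma among those at 0.

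**Figure D4:**
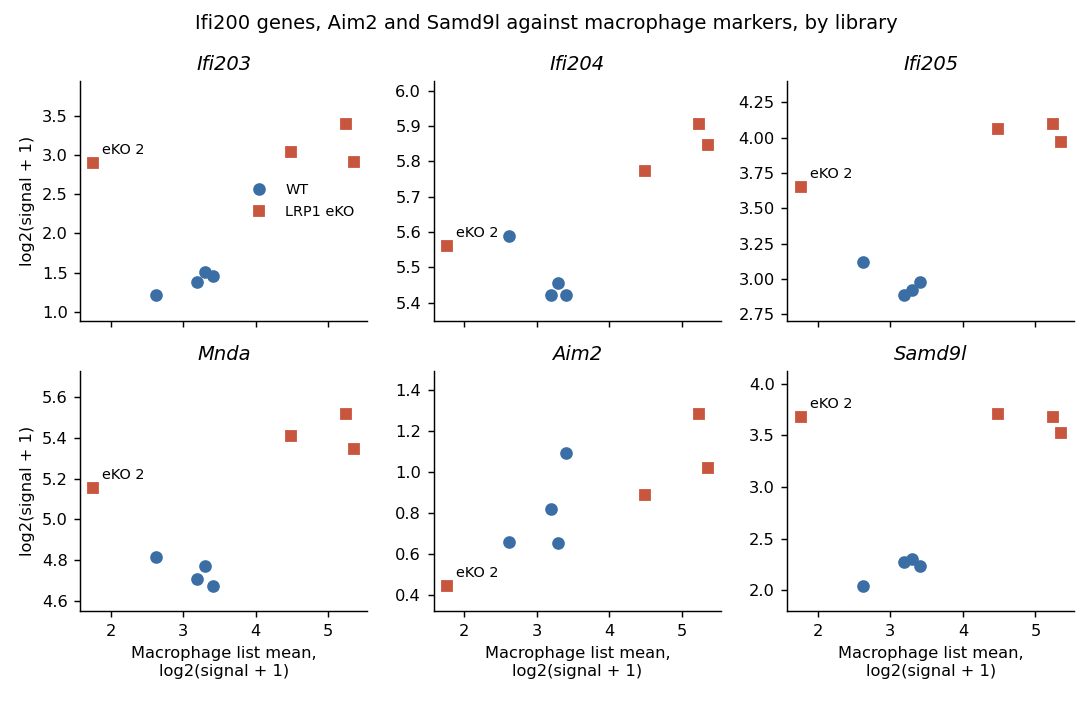
Log2(signal + 1) of Ifi203, Ifi204, Ifi205, Mnda, Aim2 and Samd9l (vertical axes, different ranges) against the mean log2(signal + 1) of 9 macrophage markers (horizontal axis) in 4 WT (circles) and 4 LRP1 eKO libraries (squares). LRP1 eKO replicate 2, at 1.76 on the horizontal axis, was above the WT libraries for Ifi203, Ifi205, Mnda and Samd9l, within their range for Ifi204 and below it for Aim2.

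Downstream of STING, the kinase and the factor that transmit the signal did not pass the test, whereas Irf7 rose. Tbk1 was 14.7 to 15.5 in WT and 13.1 to 14.9 in LRP1 eKO libraries (log2 fold change -0.12, limma adjusted p = 0.084), and Irf3 41.5 to 49.1 and 40.4 to 41.8 (-0.15, limma adjusted p = 0.054). Of 9 genes of this step, 3 were higher and 0 lower, beside 19.0% and 22.2% of all genes tested. Irf7, the interferon-inducible relative of Irf3, read 10.7, 9.99, 9.07 and 11.2 in WT and 69.1, 58.4, 69.1 and 63.5 in LRP1 eKO libraries (log2 fold change 2.55, limma adjusted p = 1.7e-08). The kinase gene Ikbke (0.33) and the TBK1 adaptor gene Azi2 (0.20) rose by less. Of the output genes of the pathway, 2 of 7 were tested. The chemokine genes Ccl5 and Cxcl10 had log2 fold changes of 1.41 and 1.14, with mean signals of 0.284 and 2.41 for Ccl5 and 1.54 and 4.55 for Cxcl10. Ccl5 was below a signal of 1 in every WT library and entered the test only through the LRP1 eKO libraries, so it could be tested only because it was high there. Ifnb1, the interferon beta gene, was listed at 0 in all WT libraries and in LRP1 eKO replicates 1 and 3 and read 0.0405 and 0.0465 in replicates 2 and 4, and Ifna1, Ifna4 and Ifna5 were listed at 0 throughout. Whether these lay below detection cannot be told at an unknown depth.

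Among genes that traffic or modify STING, 8 of 22 were higher and 3 lower, beside the same background of 19.0% and 22.2%. Usp18, an interferon-inducible protease that restrains interferon receptor signaling and also acts on STING, read 1.66, 1.39, 1.43 and 2.00 in WT and 25.5, 26.2, 23.5 and 25.5 in LRP1 eKO libraries (log2 fold change 3.32, limma adjusted p = 3.7e-09). Npc1, the lysosomal cholesterol transporter, and Rhbdf2, the iRhom2 gene, were at 0.62 and 0.58. Among cGAS regulators, 2 of 13 were higher and 3 lower, shares near that background. Those lower with the smallest adjusted p were the chromatin proteins Hmgb2 (mean 19.9 in WT and 10.5 in LRP1 eKO, log2 fold change -0.87, limma adjusted p = 4.2e-06) and Hmgb1 (-0.50) and the cGAS cofactor Zcchc3 (-0.54). Other enzymes that remove or edit nucleic acid, the group of Trex1, gave 3 of 10 higher and 4 lower, where 19.0% and 22.2% of all genes were. Adar, the RNA editing enzyme, rose from 11.0 ± 0.532 to 23.5 ± 0.687 (SD, n = 4; log2 fold change 1.04, limma adjusted p = 5.4e-07), and the nucleotide hydrolase gene Samhd1 was at 0.50. Rnaseh2b, a subunit of ribonuclease H2, was at -0.42.

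Sensors other than cGAS and AIM2 mostly did not pass the test, with 1 of 16 higher, 2 lower and 13 not called, beside 19.0% and 22.2% of all genes. The 1 higher was Zbp1, an interferon-inducible sensor of Z-form nucleic acid, which read 0.347, 0.305, 0.508 and 0.729 in WT and 10.6, 5.18, 8.13 and 7.19 in LRP1 eKO libraries (log2 fold change 2.55, limma adjusted p = 4.8e-06). Zbp1 too was below a signal of 1 in every WT library and passed the filter only through the LRP1 eKO libraries. Xrcc5 and Xrcc6, the Ku subunits, were lower at -0.42 and -0.26. Among inflammasome partners of AIM2, 1 of 7 was higher and 1 lower, beside 19.0% and 22.2% of all genes. Pycard, the adaptor ASC, was higher at 0.20 (limma adjusted p = 0.025). Il18, a cytokine processed by the inflammasome, was lower at -0.60 (limma adjusted p = 8.7e-05), and Casp8 (0.11, limma adjusted p = 0.09) was among the 5 of 7 that did not pass. Over all 8 lists, 81 of 106 genes in the table were tested, of which 22 were higher, 13 lower and 46 not called, with a median log2 fold change of 0.040. That is 27.2% higher and 16.0% lower, beside 19.0% and 22.2% of all genes tested. By 2-fold, 8 genes were higher, where 0.869% of all genes were, as the plot of pathway lists shows. These 8 include Ccl5 and Zbp1, which could be tested only because they were high in LRP1 eKO libraries.

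**Figure D5:**
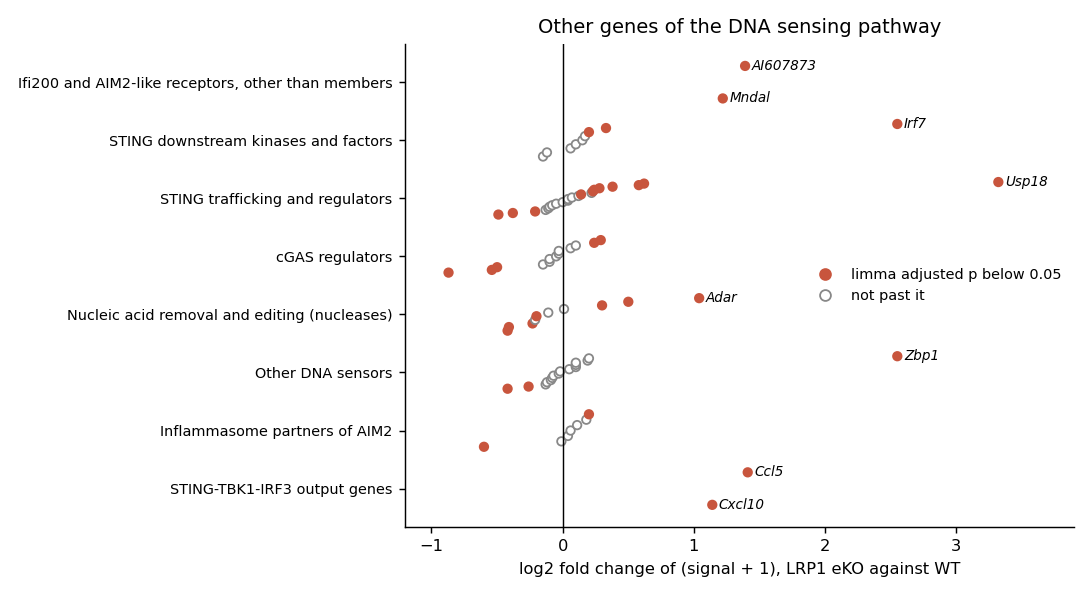
Log2 fold change of signal + 1 in LRP1 eKO against WT libraries (horizontal axis) for 81 genes in 8 lists around the 9 members (vertical axis), filled where the limma adjusted p was below 0.05. The 8 named genes were past 2-fold, all of them higher, and most other genes lay between -0.5 and 0.5. Of those named, Ccl5 and Zbp1 passed the signal filter only through the LRP1 eKO libraries.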

How the data were processed

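The authors deposited a quantile-normalized signal for 22520 coding genes in 8 libraries of cells isolated from liver as ECs. These were 4 WT and 4 LRP1 eKO libraries, grouped by genotype label. All were used, and 0 columns of per-sample values were left out. The submitters' processing notes name TopHat2, Cufflinks and mm10, whereas the paper's methods name trimGalore, STAR, featureCounts and edgeR for this kind of data. Neither describes the table, so the unit before normalization, the strand setting and the depth are not known, and a global shift between genotypes is removed. Libraries summed to a signal of 484445 to 485947. Genes listed at 0 numbered 6467 to 6621 in WT and 6186 to 6308 in LRP1 eKO libraries. Detection near 0 thus differed between the genotypes, which limits comparisons of genes near 0.

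A linear model of log2(signal + 1) on genotype alone was fitted by limma 3.58.1 (R 4.3.3) with trended moderation, and p-values were adjusted by Benjamini and Hochberg. The filter kept genes that reached a signal of 1 in 4 or more libraries, and named genes below this filter were fitted without it, over all genes above 0 in any library. Thresholds were an adjusted p of 0.05 and a 2-fold change. The exact two-sided permutation test used all 70 arrangements of 4 against 4 libraries. Nothing in the labels says that replicates are separate animals, so p-values measure only the spread between these libraries. The calculation was tested on simulated data.

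The members and lists were chosen with earlier results of these data known. Named genes were the 9 members, Lrp1, all genes of the Ifi200 cluster, the 3 genes of each pathway list with the smallest adjusted p and any past 2-fold, the gene of each cell type list with the highest mean, and the 3 genes most like each member, of which 1 is not reported here. Atrip, Pecam1, Cdh5, Clec4f, Tbk1, Irf3, interferon genes and markers at 0 were added after their values were seen. Of the pan-endothelial, sinusoidal and macrophage lists, the genes with the highest mean were Eng, Gata4 and Lyz2. Sinusoidal endothelial markers summed to 37.9 to 41.4 in WT and 38.9 to 61.5 in LRP1 eKO libraries. Of these, 1 of 5 tested markers was higher, beside 19.0% of all genes tested.

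Positions, exons and 50-base stretches came from GENCODE M21 on GRCm38 (21740 of 22520 identifiers matched), and promoters came from RefSeq on GRCm38.p6 (32851 windows). Protein sequences were not used here. Figures used matplotlib 3.10.9 in Python 3.11.15. Alternatives tried were other added constants (0.1 and 5), removal of the filter or a mean signal of 5 as its floor, untrended and other moderation, a ratio of means, another scaling, a macrophage covariate, the replicate number as a block and leaving out each library.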

Additional observations from a re-analysis of the deposited data

Results flagged for a closer look

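Of 33 groups of 4 libraries examined, 3 held a library far from the others by Dixon's ratio, and chance alone would give about 1.65, at 1 in 20 groups. Mndal in LRP1 eKO replicate 1 was the lowest of its group with a ratio of 0.890, at a signal of 7.86 where the other LRP1 eKO libraries were at 8.70 to 8.80. Pydc4 in WT replicate 4 had a ratio of 1.000 because it was the only WT library above 0, at 0.0685. Ifi202b in LRP1 eKO replicate 2 had a ratio of 1.000 for the same reason, at 0.0126.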

How the results depend on the processing

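Tmem173, Trex1, Ifi204, Ifi205 and Mnda kept their direction under all 19 alternatives and stayed past the limma threshold under the 18 of these that give a test, and the highest adjusted p was 0.033, for Ifi204. The log2 fold change ran from -0.35 to -0.27 for Tmem173, 0.27 to 0.49 for Trex1, 0.22 to 0.38 for Ifi204, 0.71 to 1.08 for Ifi205 and 0.54 to 0.68 for Mnda. Ifi203 (0.90 to 2.20) and Samd9l (0.93 to 1.66) kept their direction and stayed past the threshold under the 17 and 18 alternatives with a test, and the ratio of arithmetic means, which has no added constant and no test, gave the highest value for both. Mb21d1 ran from -0.15, the untested ratio of means, to -0.02 and passed under none of the 16 alternatives with a test (lowest adjusted p 0.073). Aim2 reversed to -0.12 with the macrophage covariate, and leaving out each library in turn gave -0.02, without LRP1 eKO replicate 3, to 0.26, without LRP1 eKO replicate 2.

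The count of members higher by 2-fold, 2, became 0 with a pseudocount of 5 and 1 with a minimum mean signal of 5, which leaves out Ifi203. It became 3, with Ifi205, with a pseudocount of 0.1, with array weights, without WT replicate 4 and without LRP1 eKO replicate 2. The count of all genes higher by 2-fold, 99, became 149 with a pseudocount of 0.1, 40 with a pseudocount of 5, and 63 with a minimum mean signal of 5, and leaving out each library gave 81 to 163, with 163 without LRP1 eKO replicate 2. The cause was not tested beyond these constructions.

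With the replicate number as a replicate block, Tmem173 had a limma adjusted p of 0.0051, Trex1 0.0093 and Ifi204 0.019, and no call of a member changed. The numbers were not taken to pair the libraries, since deviations of same-numbered libraries correlated at -0.0856, -0.13, 0.178 and 0.0378 and not every library correlated best with its own number. Depth is unknown, which limits Mb21d1, Aim2 and the cluster genes near 0 most.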
